A study of Mus musculus with 18 samples.

Results

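Circular RNAs of the wild type mouse brain were described as the circles that all 3 wild type Illumina libraries list, each with at least 1 back-splice read. These were 27453 of the 118963 circles listed in any of the 3 libraries, or 23.1%, and the 9 Illumina libraries of the whole series list 208914. A further 22483 circles were listed in 2 of the wild type libraries and 69027 in 1. The circles common to the 3 libraries held 89.6%, 90.6% and 91.4% of the back-splice reads of replicates 1, 2 and 3.

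A circular RNA forms when the splicing machinery joins the end of an exon to the start of the same or an earlier exon, a reaction known as back-splicing. The product has no free ends, so the exonuclease RNase R, which digests linear RNA, largely spares it. Brain is known as a tissue rich in circular RNAs, and many of its circles come from genes of the synapse. Circles often hold the second exon of their host gene, and flanking introns with inverted repeats are known to favour their formation.

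The study set wild type mice beside mutants of the RNA editing enzymes ADAR1 and ADAR2, in 18 samples on 2 sequencing platforms. The wild type group was adult male C57BL/6J mice aged 3 to 4 months, with whole brain as the tissue and 3 biological replicates. In the protocol, 5 µg of total RNA was depleted of ribosomal RNA, treated with RNase R and copied with random primers that can travel around a circle more than once. A back-splice read is therefore a pass over a junction, and it cannot be equated with 1 molecule. The cDNA was selected for size, amplified for 14 cycles, fragmented, amplified for 9 more cycles and read as pairs of 150 nt.

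The depth of replicates 1, 2 and 3 was 3169249, 2207905 and 1516772 back-splice reads. They listed 76743, 65365 and 54244 circles, and 80.2%, 82.7% and 55.4% of all their reads were mapped. Replicate 3 had the lowest mapped share and the fewest back-splice reads. At the depth of replicate 3, replicates 1 and 2 would be expected to keep at least 1 read for 67763 and 62015 circles. This leaves out the calling step by CIRI2, described below, which lists circles from 2 reads. The part of depth in the gap was therefore not tested. The median circle of the common set had 17, 12 and 9 reads, and 815, 1135 and 1507 of these circles rested on a single read. Levels below are in CPM, which here means back-splice reads per 1000000 back-splice reads of the library, given as mean ± SD with n = 3. A count of 3 reads, below which a value says little, stood at 0.947, 1.36 and 1.98 CPM.

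Sequence at the back-splice junction is the part that the linear RNA lacks, and it is shown for 6 of the most abundant circles. The exons were found by matching exon lengths of the circle, in order, to a GENCODE M21 transcript, and the bases are those of that transcript. In each line the last 15 bases of the circle's final exon are in lower case and the first 15 bases of its first exon are in capitals, so that the case changes at the junction.
Zfp609, exon 2 alone: gtcaagtctgaaaagCAATGATGTTGTCCA
Gigyf2, exons 4 to 8: gaagaaaagatgtagGCTCCGTGCTCTGTC
Hdgfl3, exons 2 to 5: aaagccggtgaagggATTGATGAACTCCCA
Rims2, exons 20 to 22: aactcagccaaaccgGTGCTATGGATATAG
Anks1b, exons 5 to 8: ggaagccagagtgtaACAGAAAAGGGGAGT
Kat6b, exon 2 alone: catgagaaagaccagGTCTTGGTTTCCTAA
The Zfp609 and Kat6b circles hold the annotated start codon of their hosts, and the Gigyf2, Hdgfl3, Rims2 and Anks1b circles lie wholly within coding sequence. Their spliced lengths were 874, 494, 519, 516, 459 and 873 bases, in the order of the lines.

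The highest level belonged to the circle of Zfp609, which encodes a zinc finger protein (GRCm39 chr9:65701904-65702777, exonic). Its level was 16240, 20723 and 16512 CPM in replicates 1, 2 and 3. It stood above every other circle in each of the libraries and took 1.62%, 2.07% and 1.65% of all back-splice reads. The circle of Gigyf2, a gene of translational repression, came next with 10650, 10861 and 12103 CPM (chr1:87291826-87307730). Its lowest library lay above the highest library of the next circle.

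Behind these, the order was not resolved by the spread between libraries. Hdgfl3, a member of the family of hepatoma-derived growth factor (chr7:81543547-81555384), had 6612, 6558 and 9238 CPM. Rims2, a scaffold of the presynaptic active zone (chr15:39430339-39479906), had 6989, 6442 and 7676. The authors also deposited tables of CIRI2, a circle caller, for the same libraries, and its levels are given as CPM of its own junction reads. CIRI2 lists each of the 27453 circles in each library, so it is a second count of the same calls and not an independent one. By CIRI2 the Rims2 circle had 10194, 8992 and 11454, which overlapped the 10082, 9888 and 11131 of Gigyf2. That count did not resolve the order of these 2 circles. The Rbm4 circle (chr19:4842426-4844037), from a gene of a splicing regulator, was the steadiest of the first 20 with 6611, 6770 and 6973 CPM. Rbm4 lies beside a near-identical copy, Rbm4b, and within a readthrough gene, so its host is uncertain, and its CIRI2 level was 3628 CPM against 6785 ± 181 here. From rank 3 to rank 19, each circle's range over the libraries overlapped that of the next.

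Anks1b, a postsynaptic scaffold, Zfp148, a zinc finger transcription factor, Kat6b, a histone acetyltransferase, Rims1, the paralog of Rims2, and Elf2, an ETS transcription factor, filled ranks 6 to 10 at 6193 ± 1487, 6063 ± 500, 5852 ± 260, 5700 ± 1382 and 5561 ± 936 CPM. Ranks 11 to 20 ran from Snrk, a kinase gene, at 5247 ± 1939 to Nbea, which encodes a protein of membrane traffic at the synapse, at 3278 ± 250. Between them stood Tulp4, Phf21a, Dtnb, Ankib1, Slc8a1, Crebrf, Cdyl and Hipk3.

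Some of these circles differed widely between libraries, and for 2 of them the way of counting mattered. Tulp4 had 5293, 6479 and 3803 CPM, and 4721, 5737 and 3369 by CIRI2, so that replicate 3 was the lowest library in both tables. Anks1b went the other way in both, with 5669, 5039 and 7871 CPM and 5338, 5061 and 7281 by CIRI2. Snrk had 6494, 6234 and 3014 CPM, but 5324, 5018 and 4307 by CIRI2, where the gap of replicate 3 was much smaller. Slc8a1, the gene of a sodium-calcium exchanger, had 5670, 4010 and 3012 CPM, but 4607, 5954 and 4759 by CIRI2, so its order of libraries differed between the tables.

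**Figure D1:**
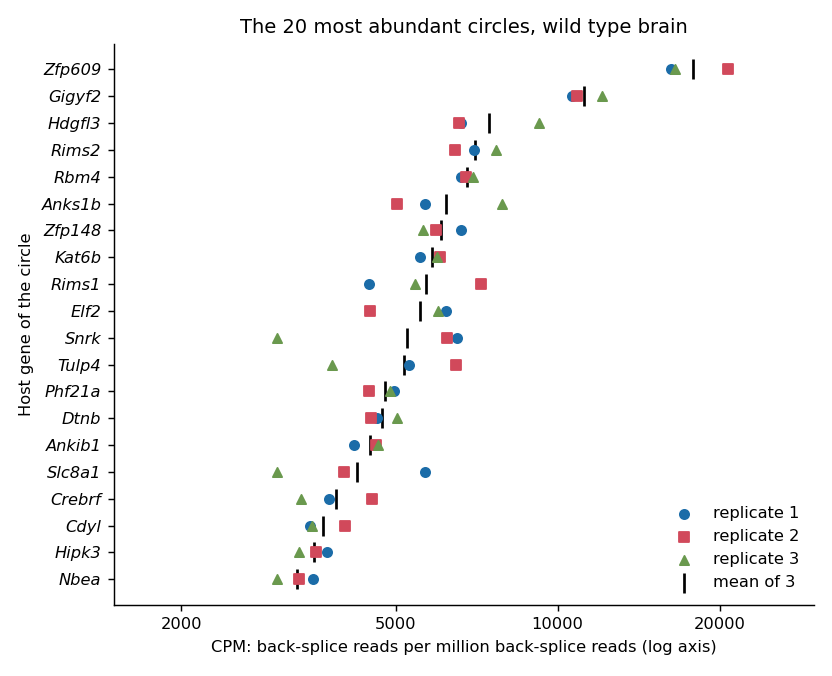
Level of the 20 most abundant circles in CPM (log axis), 1 row per circle named by its host gene, with a symbol for each of the 3 libraries and a bar for their mean. The Zfp609 and Gigyf2 symbols lie to the right of all others, whereas the symbols of the circles from Hdgfl3 down to Hipk3 overlap those of the next row.

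Reads were concentrated in few circles. The 100 most abundant took 24.3 ± 0.56% of back-splice reads, the first 1000 took 53.8 ± 0.42% and the first 10000 took 83.9 ± 0.57%. The smallest set that held 50% of the reads counted 781, 729 and 744 circles in the 3 libraries. The median circle was at 5.59 CPM, and the range from the 5th to the 95th percentile was 1.29 to 107. Levels of at least 100 CPM were reached by 1469 circles, of at least 1000 by 96 and of at least 5000 by 12.

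Exon structure was taken from the Nanopore tables of wild type replicates 2 and 3, which list the exon blocks along each circle and so show what lies between the ends. Blocks were present for 12004 of the 24972 circles labelled exon, 48.1%, and these were the more abundant ones, with a median of 14.0 CPM against 3.49 for the others. Over circles of all classes for which both Nanopore libraries gave a structure, the first listed form was identical in 6110 of 6872, 88.9%. The median spliced length of the 12004 exon circles was 715 bases, with 274 and 1802 at the 5th and 95th percentiles. The same exon circles spanned a median of 13.6 kb of genome. A circle held 5 exons at the median. Circles of 1 exon made up 5.12%, those of 2 to 5 exons 57.9%, and the most exons were 27.

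More abundant circles had fewer exons. The median level fell from 33.7 CPM for 1 exon to 21.1 for 2, 15.4 for 4 and 8.15 for 8 or more. A circle of 1 exon was long for an exon, with a median of 806 bases, whereas circles of 2 exons had a median spliced length of 358.5 bases. From the lowest to the highest of 10 abundance groups, the median spliced length went from 822 to 615.5 bases and the share of 1-exon circles from 1.75% to 9.70%. These values describe only circles that the Nanopore libraries read, a share that itself rose with abundance.

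The second exon was where circles most often began. For each host 1 transcript was used, the principal one where the annotation marks it. Exon lengths matched a run of whole exons of that transcript for 8724 circles of 3120 hosts, in transcripts of at least 4 exons. Of these circles 25.9% began at exon 2, and they held 43.8%, 44.5% and 43.0% of the reads of all matched circles in the 3 libraries. Exon 2 made up 6.11% of the internal exons of the same transcripts. A circle of several exons cannot begin at the last internal exons, so this is not the share expected of random runs of exons, which was not computed. Exon 3 opened 13.0% of circles, exon 4 opened 872 circles and exon 5 opened 7.35%. Circles that began at exon 2 had a median of 20.99 CPM, against 13.8 for the other matched circles. Without the 20 most abundant circles, exon 2 still held 39.2% of the reads. Among those 20, 16 were matched and 11 began at exon 2, including Zfp609, Hdgfl3, Zfp148, Kat6b, Elf2, Phf21a, Ankib1, Slc8a1, Cdyl, Hipk3 and Nbea. A further 2, Rims1 and Snrk, matched only another transcript of their hosts, from exon 6 and exon 2, and are not counted here. Only 3 matched circles held exon 1 and none held the last exon. A first or last exon has only 1 splice site, so it could match only where a circle used the whole annotated exon.

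**Figure D2:**
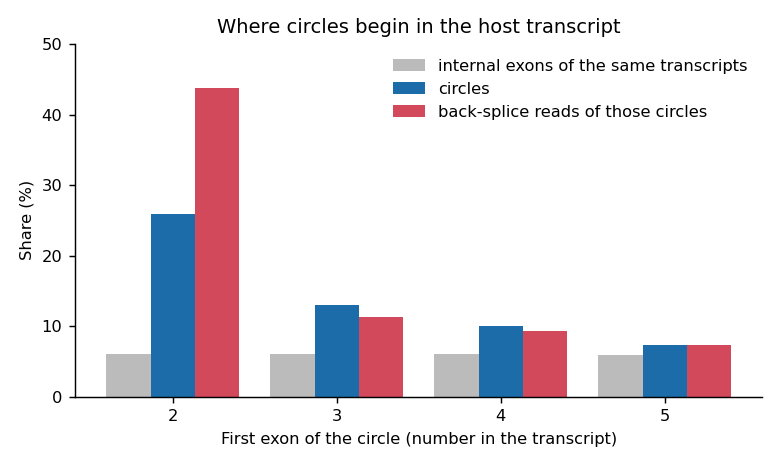
Share (%) of internal exons in the host transcripts, of matched circles and of the back-splice reads of those circles, by the number of the exon at which a circle begins (8724 circles). The bars for exon 2 are 6.11%, 25.9% and 43.8%, and the bars for circles and reads fall from exon 3 to exon 5 towards those for exons.

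The circles came from 5727 host genes. A single host could be given to 26721 circles, 217 overlapped several named genes and 515 had no gene. The median host had 2 circles and the mean was 4.67. One circle was listed for 1974 hosts, 34.5%, and 10 or more for 737 hosts, 12.9% (95% Wilson interval 12.0 to 13.8%, for counting error only). Those 737 hosts held 47.1% of the 26721 circles with a single host. Hosts with 1 circle took 3.07 ± 0.17% of all back-splice reads, hosts with 10 to 19 circles took 27.0 ± 0.42%, and the 18 hosts with 40 or more took 5.96 ± 0.33%.

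Of the hosts, 5500 matched a GENCODE M21 gene by symbol, 96.0%, and 5315 of those were protein-coding and 80 were long intergenic non-coding RNAs. They were 24.2% of the 21923 protein-coding genes. Hosts were long genes with many exons, with medians of 64.3 kb and 13 exons against 17.4 kb and 7 exons for all protein-coding genes. In 5 groups of equal size by gene length, the share with a circle rose from 0.707% for the shortest to 3.79%, 14.8%, 36.2% and 65.7%. Of hosts with 10 or more circles, 674 were in the longest group. Over 5315 hosts, the number of circles and gene length had a Spearman rho of 0.51, and the number of circles and of exons 0.39. Genes are not independent replicates, so these coefficients are a description.

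**Figure D3:**
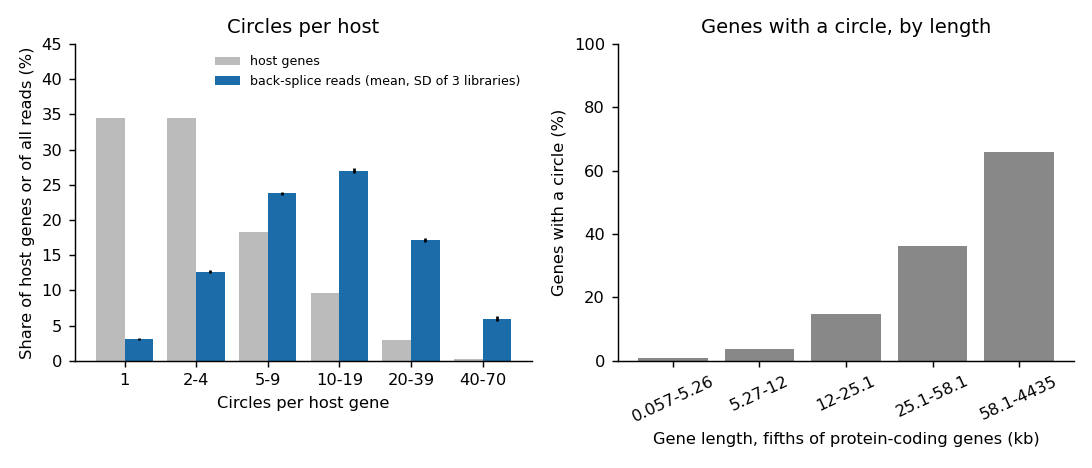
Left, share (%) of host genes and of all back-splice reads (mean, with SD over 3 libraries) by the number of circles a host gave. Right, share (%) of protein-coding genes with a circle in 5 groups of gene length (kb), which climbs from 0.707% in the shortest group to 65.7% in the longest.

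Rims2 gave the most circles, 70, from 27 distinct starts and 19 distinct ends. Its leading circle, shown above, held 64.2 ± 1.15% of its reads. Of the others, 9 reached 100 CPM and 33 stood under 10. In Rims2, 19 circles shared a single end at chr15:39479906, which is the end of the leading circle. Nbea followed with 66 circles. Lrp1b, a giant member of the LDL receptor family, had 62, and Adgrb3, an adhesion receptor at synapses, had 57. Ptk2, the focal adhesion kinase, had 51, Stxbp5l, a syntaxin-binding gene, 47, Anks1b 46, Dgki, a diacylglycerol kinase, 46, Nbas 45 and Ttll5, a tubulin-modifying enzyme, 44.

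Hosts with many circles differed in how evenly they used them. Lrp1b had 1729 ± 105 CPM over its 62 circles, and its first circle held 21.9 ± 1.34% of its reads. The leading circle of Lrp1b was not the same one in each of the libraries. Nbea had 5967 ± 298 CPM, of which its first circle held 54.9 ± 1.46%. Dgki held 60.8 ± 1.42% in its first circle, and the same circle led in all 3 libraries.

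By summed level, Zfp609 led the hosts at 18286 ± 2554 CPM. Gigyf2 had 11981 ± 818, Rims2 10951 ± 768, Rims1 10637 ± 1520 and Anks1b 9500 ± 1735. Rbm4, Elf2, Hdgfl3, Crebrf and Zfp148 followed between 8681 and 7388. These included hosts of few circles, such as Hdgfl3 with 5 and Zfp609 with 9, beside hosts of many, such as Rims2 with 70 and Rims1 with 40.

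Hosts with several circles differed in how far 1 circle led. Over the 1782 hosts with at least 5 circles, the leading circle held a median of 47.8%, 47.4% and 46.7% of the host's reads. It held over 50% for 802 hosts, 45%, and the same circle led in all 3 libraries for 1282 hosts, 71.9%. Among hosts with at least 10 circles and 1000 reads in each library, the share was highest for Phf21a, a subunit of a histone demethylase complex, at 96.3 ± 1.16%. Gigyf2 followed at 93.5 ± 0.55%, then Fat3, a giant cadherin, at 93.2 ± 1.23%, Asb3 at 92.8 ± 0.19% and Ankib1, a ubiquitin ligase, at 92.5 ± 0.88%. The lowest was Mllt10, a partner of a histone methyltransferase, at 17.05 ± 0.95%. Above it stood R3hdm1 at 18.6 ± 0.43%, Rabgap1l, a regulator of Rab proteins, at 19.6 ± 0.96%, Cadps, a gene of vesicle priming, at 19.7 ± 1.72% and Ubn2 at 20.01 ± 0.67%. Of these 5, only Ubn2 had the same leading circle in every library.

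Circles reused splice sites. A start or an end was shared with another circle of the set by 21702 circles, 79.1%, and both ends were shared by 8920, 32.5%. The 27453 circles used 17717 distinct starts and 17709 distinct ends. In Gigyf2, 17 circles began at chr1:87291826, the start of its leading circle, and in Ubn2, a gene of a histone chaperone complex, 13 circles shared a start. Circles that shared an end had a median level of 5.97 CPM, and those with ends of their own 4.65.

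Most listed genes of the synapse had a circle, and most were long. Here and below, a gene had a circle only if the circle was listed in all 3 libraries. Over all protein-coding genes the share with a circle was 24.2%, and over the longest group above it was 65.7%, so the counts below are read beside both. The lists here and below were chosen with earlier results of these data known, so a high share is a description and not a test. Of 40 genes of presynaptic release and the active zone, 36 had a circle, 90%, and 31 of the 40 were in the longest group, of which 30 had one. They gave 530 circles in all, with a median of 7 circles and 170 CPM for each host. The medians were 2 circles and 24.8 CPM over all hosts, and 5 circles and 59.4 CPM over protein-coding hosts of the longest group. Medians of the lists below are read beside both. Rims2 and Rims1 led this list, followed by Erc1, an active zone scaffold, at 3109 ± 608. Rims3, Ppfia4, Ptprs and Syngr1 had no circle listed in all 3 libraries, but 6, 17, 13 and 5 circles in at least 1. Of 44 genes of glutamate receptors and the postsynaptic density, 40 had a circle, 90.9%, 405 in all, and 35 of the 37 in the longest group had one, with a median of 7 and 199 CPM. Dlgap1 led at 2330 ± 108, then Sipa1l1 at 1663 ± 179, Nlgn1 at 1138 ± 189 and Dlg1 at 1118 ± 74.9, which are scaffold or adhesion genes. Grin2d had none in any wild type library. Dlg4, Homer2 and Camk2a had no circle listed in all 3, but 7, 5 and 17 circles in at least 1. Dlg4 encodes PSD-95, a main scaffold of the same structure.

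Of 23 genes of the GABA synapse, 14 had a circle, 60.9%, 91 in all, and 13 of the 16 in the longest group had one. Gphn, the gephyrin scaffold, led at 414 ± 73.9, then Gabra4 at 318 ± 34.3, and Gabbr2 was at 183 ± 20.5. The enzymes of GABA synthesis, Gad1 and Gad2, and the transporters Slc32a1 and Slc6a11 had none in the set. Of 34 genes of voltage-gated channels, 30 had a circle, 88.2%, 270 in all, and 28 of the 30 in the longest group had one. The leak channel Nalcn led at 1608 ± 150, with the calcium channel genes Cacna1a at 1235 ± 123 and Cacna1b at 1042 ± 252 and the sodium channel gene Scn8a at 833 ± 8.15.

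Genes of the nucleus gave circles as well. Of 44 chromatin regulators, 43 had a circle, 97.7%, 539 in all, with a median of 9 circles and 214 CPM. Smarca5 was the exception, with 7 circles listed in fewer libraries. The longest group held 42 of the 44 regulators, and each of these had a circle. Kat6b led at 7098 ± 477, then Phf21a, Ash1l, a histone methyltransferase, at 1719 ± 322 and Kmt2a, another one, at 1566 ± 462. Of 38 RNA-binding proteins of splicing and circle formation, 33 had a circle, 86.8%, 212 in all, with a median of 61.7 CPM, and 19 of the 23 in the longest group had one. Rbm4 led at 8681 ± 267, then Hnrnpu at 2193 ± 175, Rbfox1, a neuronal splicing factor, at 1366 ± 342 and Khdrbs3 at 624 ± 49.5. Of 26 genes listed as known hosts of brain circles, 23 had one, 360 in all. The 3 without were Cdr1os, Nrip1 and Myst4, and the last is an older symbol of Kat6b, which had 17.

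Markers of cell types were read through their circles of the set, where fewer cells of a type and less RNA per cell cannot be told apart. Of 6 neuron markers 5 had a circle, with a summed level of 3514, 3460 and 3696 CPM. Celf4 had 5 circles, but none that all 3 libraries listed. No circle of the set came from Slc17a7, Slc17a6 or Camk2a, markers of excitatory neurons, or from Gad1, Gad2 or Slc32a1, markers of inhibitory neurons. The astrocyte list had 3 of 6 at a summed level of 506 to 584, with Gfap, Aqp4 and Slc1a3 at none. Oligodendrocyte markers had 3 of 6 at 404 to 446, with Mog and Pdgfra among those at none. Microglia had 1 of 5 (Mertk), endothelial cells and pericytes 1 of 5 (Pecam1), ependyma and choroid plexus 3 of 5, and testis 1 of 4 (Ddx4, 5.70 ± 2.12). Liver, muscle and lymphocyte markers had none in any wild type library. A marker without a circle does not show that its cells were missing, since short genes rarely gave circles.

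By the authors' class, 24972 circles were exon, 91.0% (Wilson interval 90.6 to 91.3%), 1877 intron, 6.84%, 515 intergenic, 1.88%, and 89 antisense, 0.324%. In the circles listed in any library, the shares were 79.4%, 12.3%, 6.49% and 1.86%. Thus 26.4% of exon circles were listed in all 3 libraries, against 12.9%, 6.67% and 4.03% of the other classes. Exon circles held 87.7 ± 0.79% of reads and intron circles 2.14 ± 0.098%. The median level of exon circles was above that of intron circles by 0.71, 0.70 and 0.58 on the log2 scale in the 3 libraries. This direction held in 3 of 3 libraries, with p = 0.25 before and after adjustment in a two-sided exact sign-flip permutation test, the smallest p that 3 libraries allow.

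The intron label covered spliced circles as well. Of 340 intron circles with Nanopore blocks, the median held 3 blocks over 713.5 bases. The most abundant, in Rims1 (chr1:22416517-22464172), had 1402, 1684 and 1680 CPM, and its 47656 bases of genome were spliced to 5 blocks and 633 bases. The long non-coding RNA Rmst, known from neural differentiation, had the next at 638 ± 106 (chr10:91911032-91972552), of 11 blocks and 1710 bases. Circles of the non-coding genes 6530403H02Rik at 458 ± 32.5 and Gm2164 at 436 ± 17.4 followed, then Ankrd12 at 423 ± 49.6, which CIRI2 put at 113. Among hosts that are not protein-coding, Rmst led with 12 circles and 914 ± 122 CPM, then Snhg14, the host transcript of small nucleolar RNAs in the Prader-Willi region, with 30 circles and 782 ± 107.

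Intergenic circles were compact, with a median span of 1518 bases, and the leading one (chr10:73118580-73119440) had 186, 200 and 212 CPM. The leading antisense circle lay opposite Cdr1 (chrX:60226854-60229780, plus strand, 2927 bases), the place of the microRNA-binding circle Cdr1as, which is known as a main circle of brain. It had 209, 206 and 201 reads, that is 65.9, 93.3 and 133 CPM, and it stood at rank 1510 of the set. CIRI2 gave it 214, 203 and 205 junction reads and the class intergenic, from the same reads. Neither Nanopore library listed it.

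Exon circles spanned a median of 13386.5 bases of genome (95% interval of the median 13098 to 13651), from 138 to 199798. Spans under 1 kb were found for 4.99% and over 100 kb for 812 circles, 3.25%. Intron circles were longer, with a median of 19675. The median level of exon circles rose from 6.71 CPM for spans of up to 300 bases to 9.38 for 501 to 1000 bases. It was lower in each longer group, down to 3.32 CPM for 100001 to 200000 bases. No circle was longer than 200 kb, so that value may be a limit of the caller, and this was not tested.

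Among the 2074 exon circles with at least 100 reads in each library, the 5 shortest spanned 152 to 196 bases, and each was a single exon. Exon 17 of the matched Erc1 transcript gave a circle of 161 bases at 490, 576 and 1061 CPM (chr6:119671532-119671692, minus strand). Exon 22 of that of Dgkb, a diacylglycerol kinase of neurons, gave one of 196 bases at 82.7, 53.0 and 101 (chr12:38488538-38488733, plus strand). Both lie wholly in coding sequence, so the circle is printed whole. The first and last 15 bases, which the back-splice joins, are in capitals.
Erc1: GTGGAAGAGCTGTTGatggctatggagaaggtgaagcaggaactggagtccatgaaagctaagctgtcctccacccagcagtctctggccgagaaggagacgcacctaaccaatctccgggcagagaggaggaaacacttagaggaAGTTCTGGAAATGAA
Dgkb: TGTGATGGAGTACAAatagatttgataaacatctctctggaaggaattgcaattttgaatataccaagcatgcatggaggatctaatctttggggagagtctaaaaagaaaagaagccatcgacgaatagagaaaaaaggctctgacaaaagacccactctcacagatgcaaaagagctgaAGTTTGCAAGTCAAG
Their G and C content was 52.2% and 38.8%. Read pairs of 150 nt can pass around circles of this size. Also among the 5 were circles from the overlap of Pabpn1 and Bcl2l2 at 149 ± 74.3 and from Dapk1 at 83.0 ± 33.5 CPM. All 5 were highest in replicate 3.

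The 5 longest of the same set spanned 161067 to 195766 bases. Among them were circles over Cep112 and over Nfib, each with a second gene name, and 1 of Atxn1, the gene of ataxin 1. The Atxn1 circle had 681, 579 and 924 CPM, with a mean of 728, but CIRI2 junction reads put it at 2498. The callers thus disagreed on this circle by more than the spread between libraries.

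Levels depended on spliced length differently in each library. For abundant circles of up to 200 bases, the median log2 of a library's level over the mean of the 3 was -0.14, -0.27 and 0.31 in replicates 1, 2 and 3. For circles over 1500 bases it was -0.17, 0.27 and -0.15. Replicate 3 was the highest library for 25 of 34 circles in the shortest group, 73.5%, and for 14 of 160 in the longest, 8.75%. By CIRI2, in a reading chosen after seeing the data, these were 27 and 8 circles. The protocol selects cDNA by size and replicate 3 had the lowest share of mapped reads, but the part of either in this pattern was not tested.

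**Figure D4:**
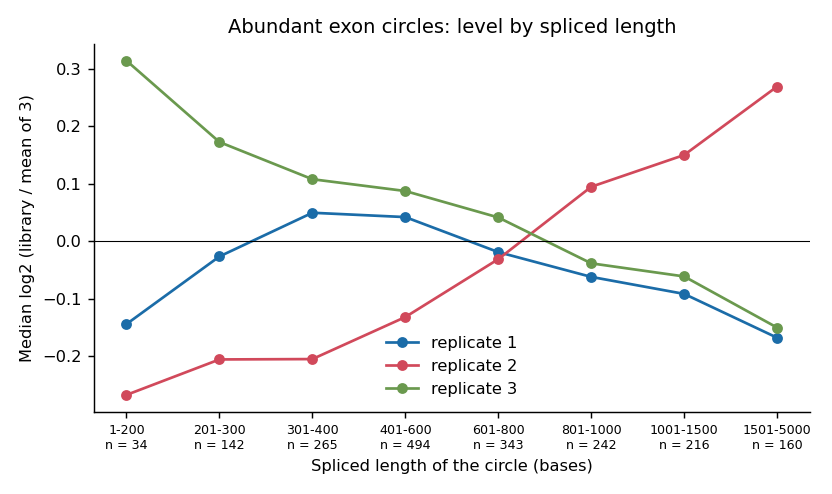
Median log2 of the level in 1 library over the mean of the 3 libraries, for exon circles with at least 100 reads in each library, by spliced length in bases (n is the number of circles). Replicate 2 climbs from -0.27 for the shortest group to 0.27 for the longest, and replicate 3 falls from 0.31 to -0.15.

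The deposited junction ratio is 2 times the back-splice reads, divided by the sum of that value and the forward-splice reads. Each back-splice read thus counts 2 times, and the ratio is not a plain share of reads. It was measured after RNase R, so it is not the share of circular RNA in the brain. Its median over exon circles was 65.8%, 49.6% and 45.4% in the 3 libraries. That of intron circles was higher, at 75%, 69.6% and 72.7%. The difference of exon and intron circles was -18.8 ± 9.11 percentage points, of the same sign in 3 of 3 libraries, with p = 0.25 in the two-sided exact sign-flip test, before and after adjustment over both contrasts.

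These ratios rest on forward-splice reads that are often listed at 0. That was so for 10190, 9330 and 8641 circles, or 37.1%, 34.0% and 31.5%, each of which thereby has a ratio of 100%. For the same circles the CIRI2 tables of the same libraries list 20 or more non-junction reads in 99.1%, 98.4% and 97.2% of cases, with medians of 676, 574 and 336. A 0 in 1 library also went with many reads in another, since 9150 circles were at 0 in 1 or 2 libraries and 4980 of these had at least 100 forward-splice reads in another. The Gigyf2 circle shows it, with forward-splice reads listed at 0, 3090 and 0 and CIRI2 non-junction reads of 3358, 2804 and 1842. A listed 0 was therefore not read as absence of the linear RNA.

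With circles above 0 in every library, 13295 in all, the exon median was 14.4 ± 1.55%, and by the CIRI2 ratio of the full set it was 10.2 ± 0.92%, against 53.6 ± 10.8% as deposited. The ratio of exon circles minus that of intron circles stayed negative in both readings, at -24.6 ± 2.42 and -2.73 ± 0.40 percentage points. By CIRI2, exon circles had 10.4%, 9.20% and 11% and intron circles 13.2%, 11.5% and 14.1%, whereas intergenic and antisense circles were near 51.1 ± 1.36% and 50.4 ± 2.53%.

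The ratio rose with abundance. From the lowest to the highest of 10 abundance groups, the median CIRI2 ratio went from 2.93 ± 0.49% to 55.6 ± 2.77%. Back-splice reads enter both the level and the ratio, so the 2 are not independent. Of the 2074 abundant exon circles, 1252 had a CIRI2 ratio over 50% and 56 under 10%.

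**Figure D5:**
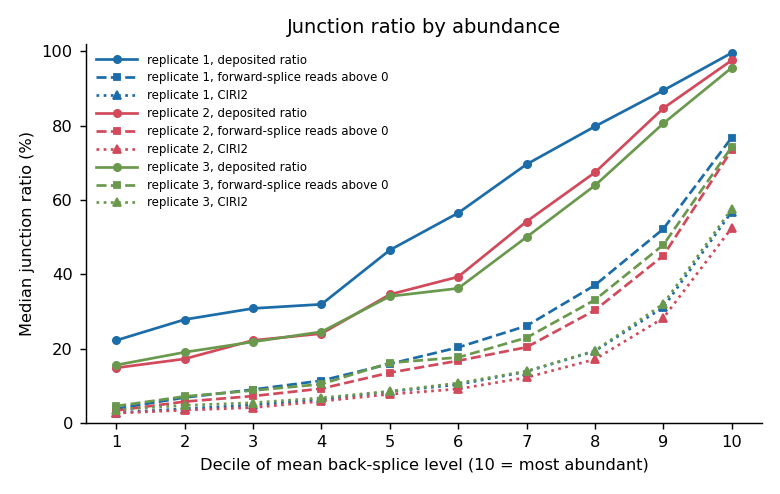
Median junction ratio (%) in 10 groups of circles by mean back-splice level, per library, as deposited, for circles with forward-splice reads above 0 in that library, and by CIRI2. All lines rise, and the deposited ratio lies above the CIRI2 ratio in every group and library.

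Abundant circles differed in their ratio. By CIRI2, the Zfp609 circle was at 95.8%, 95.7% and 96.1% and the Hipk3 circle, from a kinase gene, at 96.6%, 96.3% and 96.3%. The Crebrf circle had 68.1%, 67.5% and 67.8%, the lowest of the first 20, although it was deposited at 100% in each library. The deposited value was 100% in all 3 libraries for 642 abundant exon circles, Rims2, Rbm4, Anks1b, Zfp148, Rims1, Snrk, Tulp4 and Phf21a among them. Their CIRI2 ratios were 93.4 ± 0.55%, 95.1 ± 0.47%, 80.8 ± 2.06%, 92.6 ± 0.51%, 81.6 ± 1.40%, 91.0 ± 0.31%, 92.1 ± 0.56% and 95.4 ± 1.14%.

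At the other end stood circles with a low ratio and many forward-splice reads. Such reads may come from linear RNA or from another circle of the host, and these were not told apart. The Dpysl2 circle, from a gene of axon growth, had a deposited ratio of 1.30%, 1% and 2.20% with 44229, 45509 and 18019 forward-splice reads. The App circle, from the amyloid precursor gene, had 2.90%, 2.50% and 4.50%, and the Wdr82 circle 2.30%, 0.7% and 3.30%. A second Zfp148 circle (chr16:33254996-33288553) was at 1.90%, 2.00% and 2.40%, while the leading Zfp148 circle was deposited at 100%. The second circle held exons 4 to 7 and the leading one exons 2 to 4. Forward-splice reads into exon 4 may thus come from within the leading circle. Circles of Unc79, a channel subunit gene, Canx, the gene of the chaperone calnexin, and Dlgap1 were also among the 8 lowest. By CIRI2 these 8 lay between 1.60% and 7.67%, so both counts of the same calls put them low.

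Libraries ranked circles alike. Spearman's rho across circles was 0.78, 0.78 and 0.76 for the pairs of replicates 1 and 2, 1 and 3, and 2 and 3, as a description, since the set was chosen for presence in all. The 2129 circles with at least 100 reads in each library had a median coefficient of variation of 16.5%, against 5.93% from counting error alone, which covers neither amplification nor the differences between mice, and 30 differed more than 3-fold between libraries. The biological coefficient of variation fitted by edgeR over 16142 circles with at least 30 reads was 39.2%, and 31.0% over the 7218 with at least 100.

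The Nanopore libraries of wild type replicates 2 and 3 read 9821 and 9497 of the circles, 35.8% and 34.6%. Replicate 1 was not analysed here on that platform. The share rose from 9.18% and 7.76% in the lowest abundance group to 88.9% and 88.6% in the highest. These circles held 73.5% and 75.1% of Nanopore reads. The splice site pair AG-GT was listed for 98.7% of them in both libraries, against 77.2% and 78.0% of Nanopore circles outside the set. Of the 20 most abundant circles, 2 were unevenly listed, the Rims2 circle with 1386 and 0 Nanopore reads and the Phf21a circle with 0 and 586.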

How the data were processed

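RNase R-treated whole brain RNA of 3 wild type mice was sequenced on Illumina. The submitters' processing notes name bcl2fastq, BWA 0.7.17, CIRIquant 1.1.2 and the build GRCm39. The authors' tables hold counts of back-splice and forward-splice reads, a junction ratio deposited as a fraction, and a deposited CPM of mapped reads. The deposited CIRI2 tables (counts of 2 or more) and the Nanopore tables of replicates 2 and 3, whose names mark a filter on repeats and rRNA, served as second readings.

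Circles were joined by position. Where a circle had several gene names, predicted and small RNA genes were set aside if 1 other name remained. Levels, also in CPM, were set against back-splice reads and not mapped reads. Class contrasts within libraries were tested by exact sign flips, as a family of 2, and the variation between libraries with edgeR 4.0.16 in R 4.3.3, whose estimate was checked on simulated counts. Tables were made with Python 3.11.15 and pandas 2.3.3. Exon lengths were matched to GENCODE M21 (GRCm38) transcripts without coordinates.

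Circles named were the 20 most abundant, the 5 leading ones of each other class, and, of exon circles with at least 100 reads in each library, the 5 longest, the 5 shortest and the 8 of highest and lowest ratio. Hosts named had the most circles or reads, the most shared ends or the highest and lowest leading share, and up to 4 genes per list. The members and lists were chosen with earlier results of these data known. Some circles and genes that these rules choose are counted in the totals and not reported here individually.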

Additional observations from a re-analysis of the deposited data

How the results depend on the processing

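Counts of circles followed the threshold. At least 5 reads in every library left 16004 circles, of which 92.4% were exon. The share of hosts with 10 or more circles was then 6.74%, the median exon span 12444.5 bases, the exon junction ratio 73%, the leading share 46.2% and the share with a shared end 71.2%. Presence in at least 2 libraries gave 49936 circles, with 88.5% exon, 19.7% of hosts with 10 or more, a ratio of 37.3% and 85.3% with a shared end. CIRI2 junction reads gave 14.6% of hosts with 10 or more, 22.4% of reads in the first 100 circles, 90.2% exon, a span of 14257 bases, a ratio of 9.1%, a leading share of 44.5% and 81.3% with a shared end. CIRI2 also put 29 of the 58 named circles over 1 SD from their level. By the gene names each table gives, 5543 of 5727 hosts were common to both. The exon ratio was 26.5% with at least 20 reads of both kinds in every library, and, in readings chosen after seeing the data, 14.4% with forward-splice reads above 0 and 10.2% by CIRI2 over the same circles. The coefficient of variation was 31.0% with at least 100 reads and 32.9% with CIRI2. TMM moved no named circle by over 1 SD.

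Leaving out replicate 1, 2 or 3 in turn gave 14.2 to 16.1% of hosts with 10 or more circles, 89.4 to 90.2% exon, spans of 12948 to 13666 bases, ratios of 41.5 to 45.9%, leading shares of 46.2 to 47.2%, 80.3 to 82.2% with a shared end and coefficients of variation of 34.1 to 39.2%. Fewer libraries admit more circles of low count, which lie in these sets by construction. With every library at the depth of the smallest, 25833 circles would be expected to keep at least 1 read in all 3. This leaves out the calling step, which lists circles from 2 reads. Both exon and intron contrasts kept their sign under all alternatives run on them. No paired analysis was possible because only 1 group was described and no test between groups was run.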

Other observations

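Other hosts that are not protein-coding gave abundant circles. A230006K03Rik had 23 circles at 617 ± 37.7 CPM (SD, n = 3), 6530403H02Rik 15 circles at 599 ± 25.1 and 4933406I18Rik 5 circles at 460 ± 93.5, all annotated as long intergenic non-coding RNAs. The pseudogene Gm9762 had 1 circle at 724 ± 543 and Nlrp5-ps had 8 at 607 ± 247, and both spreads were wide. Reads of a pseudogene may be shared with its parent gene, so these hosts are uncertain.

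The circles with the highest CIRI2 ratio among abundant exon circles were named after their values were seen. They were circles of Wdr49 at 97.7 ± 0.35%, Ripk2, a kinase of innate immunity, at 97.5 ± 0.30%, Mllt3, a reader of histone acylation, at 97.1 ± 0.26%, Fat3 at 97.0 ± 0.46% and Trpc6, a cation channel, at 97.0 ± 0.20%. The Fat3 circle is a single second exon of 3306 bases. For Trpc6 the deposited ratio was 100%, 90.5% and 54.3% in the 3 libraries, with forward-splice reads listed at 0, 111 and 365.

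Chromosomes differed in circles per host. Chromosome 12 had 5.63 circles for each of its 245 hosts and chromosome 7 had 3.78 for each of 353. The X chromosome gave 691 circles from 176 hosts and took 1.19 ± 0.025% of all back-splice reads. No test was run on these values.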
